A study of Drosophila melanogaster with 36 samples.

Results

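The genes described here are those named for the proteins of the cytosolic ribosome of Drosophila melanogaster. They were chosen by symbol and name alone: a symbol that starts with RpL or RpS and goes on with a digit or P, and a gene name that begins with Ribosomal protein, with kinases left out. The annotation of the BDGP6 genome held 92 such genes, of which 91 were among the 13154 genes of the 3 expression tables and RpL10Aa was in none. Of these, 91 were listed for head, 89 for fat body (without RpS28-like and RpS28a) and 90 for ovaries (without RpS28-like).

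All flies were females. M females had been reared as larvae on 100% SYA (sugar-yeast-agar food) and H females on 120% SYA, and both groups were kept from eclosion on a shared adult food of 110% SYA and remated at intervals. RNA-1 females were survivors collected once 10% of their cohort had died and RNA-2 females once 60% had died, so that time was set by mortality and not by days. Head, fat body and ovaries were each sequenced in 3 libraries per larval diet and time, 36 in all, every library being a pool of 11 or 12 females. The "fat body" was the abdomen dissected free of gut and ovaries, so it held other abdominal tissue as well. Transcripts of gut and germline marker genes were also found in it.

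A ribosome is built from a small and a large subunit, each made of ribosomal RNA and a fixed set of proteins, most of them needed in equal numbers. Their mRNAs are short, very abundant, and share a tract at the start of the message through which the TOR kinase pathway, the main sensor of amino acids, controls how well they are translated. Loss of 1 copy of many of these genes in Drosophila gives the Minute phenotype, slow development with short, thin bristles. In the ovary, nurse cells make ribosomes in great number for the egg. Several ribosomal protein genes in the fly have a duplicate, and some duplicates are known mainly from the germline.

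The genes lay on every large chromosome arm, 19 on 2L, 21 on 2R, 14 on 3L, 23 on 3R, 14 on X and 1 on chromosome 4. Their transcripts were short, with a median length of 707.5 bases (288 to 1512) against 1681 for all genes in the tables. Exons of 32 of them overlapped an exon of another gene, 10 on the same strand and 25 on the opposite strand. The setting for strand in the authors' counting was not stated in the sources read for this work, so reads of such overlapping genes may not have been told apart.

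Together these genes took between 8.56% and 12.5% of all normalized counts in head libraries, 9.84% to 12.9% in fat body and 9.44% to 11.8% in ovaries. A normalized count here is the authors' estimated read count for a gene divided by a factor for the depth of the library. The library totals after this scaling lay between 54372784 and 75354692. A mean of at least 10000 normalized counts was reached by 80 of them in head, by 80 in the fat body and by 82 in ovaries. Per kilobase of transcript, RpL41, which encodes the smallest protein of the ribosome, was highest in each tissue, with means over the 12 libraries of 300470 in head, 399488 in the fat body and 322719 in ovaries. RpL39 (178334) and RpLP1 (172806) followed it in head, RpLP1 (230127) and RpL39 (229867) in fat body, and RpS3A (215401) and RpL27A (188736) in ovaries.

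The low end held duplicates. The 3 lowest per kilobase in head were RpL37-2 (9.17), RpL22-like (4.86) and RpS28-like (3.80), in fat body RpL37-2 (10.2), RpS10a (7.62) and RpL22-like (0.729), and in ovaries RpL37-2 (10.2), RpL22-like (7.13) and RpS28a (6.46). A gene was tested in a tissue where 3 or more of its 12 libraries reached 10 normalized counts, as 87 of 91 did in head, 86 of 89 in the fat body and 88 of 90 in ovaries. The genes that did not enter were RpS28a, RpL37-2, RpL22-like and RpS28-like in head, RpL37-2, RpS10a and RpL22-like in fat body, and RpL37-2 and RpS28a in ovaries.

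Defining markers were high in head and ovaries and mixed in fat body. The rhodopsin ninaE had a median of 989552 normalized counts in head and 584.6 in ovaries, the germ plasm gene osk 81500.8 in ovaries and 143 in head. Of 2 fat body markers, the lipoprotein apolpp had medians of 603284 in fat body, 443708 in head and 1782 in ovaries, and the storage protein Lsp2 was lower in fat body (233.5) than in head (12485), with 9.30 in ovaries. Germline transcripts were nevertheless present in fat body libraries, with osk between 124.9 and 6610. In head, the 3 M RNA-1 libraries did not resemble each other: the mean log2 deviation of the ribosomal protein genes from their 12-library means was 0.29 in replicate 1, -0.04 in replicate 2 and 0.48 in replicate 3. Across all genes, the deviation was related to transcript length in replicates 1 and 3 (r of -0.39 and -0.48 across genes, which are not independent), with r of 0.17 in replicate 2 and between 0.0065 and 0.21 in the other head libraries. The mean deviation of the ribosomal protein genes in those other libraries lay between -0.20 and 0.03. Counts of ribosomal protein genes called in head are therefore given with and without M RNA-1 replicate 2.

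**Figure D1:**
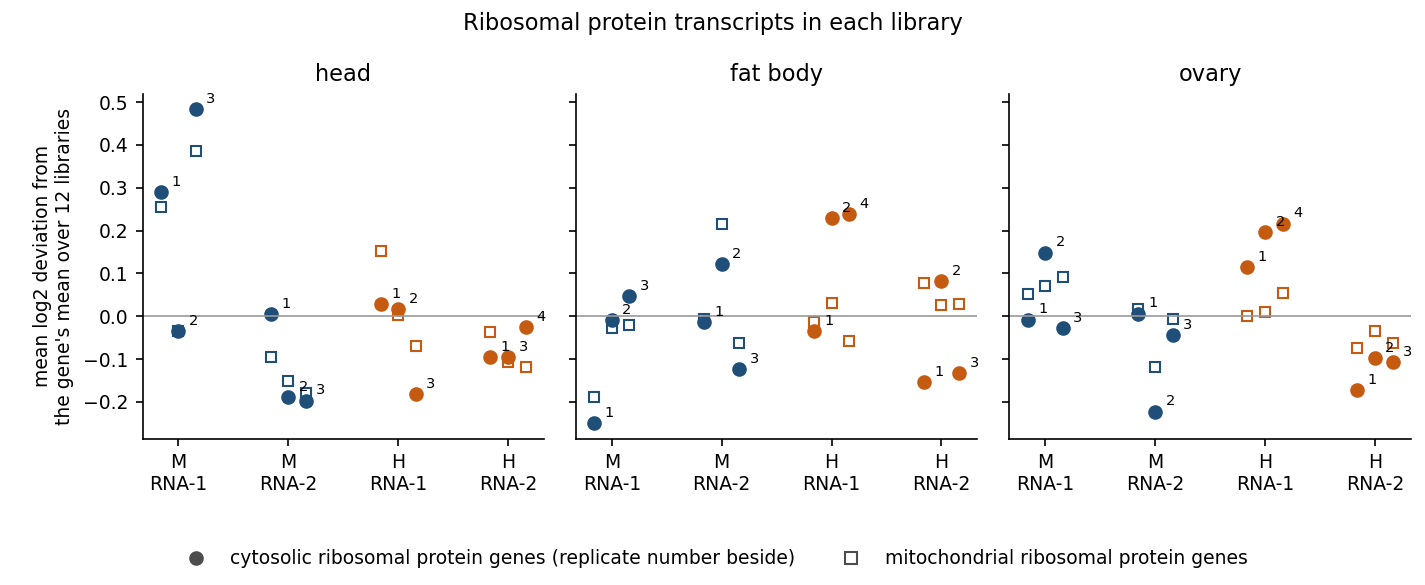
Mean log2 deviation of ribosomal protein transcripts from each gene's mean over the 12 libraries of its tissue, 1 point per library by diet and time (blue M, orange H), with filled circles for cytosolic and open squares for mitochondrial ribosomal protein genes and the replicate number beside each circle. Replicates 1 and 3 of M RNA-1 in head stand at 0.29 and 0.48 with replicate 2 at -0.04, and in ovaries the H RNA-1 libraries (0.11 to 0.22) lie above the H RNA-2 libraries (-0.17 to -0.10).

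In the head of M females, ribosomal protein transcripts were lower at RNA-2 than at RNA-1 under the authors' scaling: 70 of the 87 genes tested were lower, 0 were higher and the median log2 difference was -0.41, against 16.1% of all 11197 genes called lower, 15.8% called higher and a median of 0.02. Calls are from limma on log2(value + 1) with an adjusted p (Benjamini-Hochberg over all genes of the tissue) under 0.05. In these bulk samples, fewer cells of a type and less RNA per cell cannot be told apart. Both subunits took part to a like extent, with 43 of 51 large subunit genes (median -0.41) and 27 of 36 small subunit genes (median -0.41) lower. Among the 80 abundant genes the change lay between -0.57 and -0.22. The call rests on the scaling of the libraries: after division by library totals, which moved the median of all genes to 0.29, 0 genes were lower and 1 was higher (5.42% and 41.1% of all genes), while the median of these genes was -0.43 relative to that of all genes. After quantile normalization 12 were lower and 0 higher, against 17.4% and 14.1% of all genes, so that the count was no longer above the background, and the median relative to all genes was -0.11.

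RpL5, a large subunit protein that carries 5S ribosomal RNA into the ribosome, had the smallest p in this comparison. Its normalized counts were 201288, 161044 and 199803 in the M RNA-1 libraries (replicates 1, 2 and 3) and 141988, 136788 and 131484 in the M RNA-2 libraries. All RNA-1 values lay above all RNA-2 values, and the log2 difference was -0.45 (SE 0.11, adjusted p = 0.0107 with limma). In H heads RpL5 stood at 169039, 176637 and 149892 in RNA-1 and at 132947, 147394 and 149551 in RNA-2, which was not called (-0.20, adjusted p = 0.224) although the groups did not overlap. RpL24-like followed RpL5 in M at -0.43 (SE 0.10, adjusted p = 0.0116), and RpL4, a large subunit protein that lines the exit tunnel, at -0.49 (SE 0.13, adjusted p = 0.0168). RpL18 had the lowest difference, -0.57 (SE 0.15, adjusted p = 0.0185), although its groups overlapped.

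RpL32, widely used under the name rp49 as a reference gene in qPCR, did not pass the test. Its M RNA-1 values were 88268, 72786.7 and 104966 and its M RNA-2 values 76958.7, 65661.4 and 64557.1, so that replicate 2 of RNA-1 lay below the highest RNA-2 library (log2 difference -0.35, SE 0.13, adjusted p = 0.0601). The 3 proteins of the stalk, which recruits elongation factors to the ribosome, all fell: RpLP0 by 0.37 on the log2 scale, RpLP1 by 0.39 and RpLP2 by 0.36. Of the genes that encode a ribosomal protein fused to ubiquitin, RpL40 was called (-0.42, adjusted p = 0.0304) and RpS27A was not (-0.34, adjusted p = 0.0705). RpS6, the target of the TOR-activated S6 kinase, fell by 0.39 (adjusted p = 0.0383).

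Replicate 2 lay below replicates 1 and 3 of M RNA-1 in 85 of the 87 genes and below the highest M RNA-2 library in 56. The groups of M RNA-1 and M RNA-2 did not overlap, with RNA-1 higher, for 31 of the 87 genes, against 21.3% of all genes. Without that library, 84 genes were lower and 0 higher, against 25.3% and 27.1% of all genes, with a median of -0.55, and RpL32 then differed by -0.48 (SE 0.11, adjusted p = 0.00397). Without M RNA-1 replicate 1 or 3 the count dropped to 1 or 2, with medians of -0.39 and -0.29. Without M RNA-2 replicate 2 or 3 it dropped to 4 or 2, with medians of -0.38 and -0.37. It was 46 when any 1 H RNA-2 library was left out, where the median stayed at -0.41. Shares of all genes in these fits are not given here. Fewer calls among these genes therefore cannot be told from fewer calls over all genes. With replicate 2 alone as M RNA-1 the median was -0.13. With each library's trend on transcript length removed, 18 genes were lower and 1 higher, near the background of 15.6% and 14.3% of all genes, with a median of -0.18, so that the length trend moves with this result, and its part in it was not tested.

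In the head of H females the same comparison called 0 of the 87 genes (limma, 1 gene at an unadjusted p under 0.05), with a median of -0.05, while 8.56% of all genes were called lower and 11% higher. The difference between the changes (H change minus M change) had a median of 0.36 and was higher for 85 of 87 genes, but called 0 (12 at an unadjusted p under 0.05), against 0.0804% of all genes called higher and 0.0714% lower. Without M RNA-1 replicate 2 it called 78 higher and 0 lower, with a median of 0.50, where 14% of all genes were called higher and 18% lower. The median of this difference was 0.24 without M RNA-1 replicate 3, 0.15 after quantile normalization and 0.13 with the length trend removed. Calls between the diets at RNA-1 also changed with M RNA-1 replicate 2. At RNA-1, 0 genes were called between H and M (46 at an unadjusted p under 0.05, median -0.29, with 2.75% of all genes called lower and 0.643% higher), and 84 were lower in H without replicate 2 (median -0.44), against 19.8% of all genes lower and 22.1% higher in that fit. The RNA-1 median was -0.17 without M RNA-1 replicate 3, -0.11 after quantile normalization and -0.07 with the length trend removed. At RNA-2, 0 genes were called, also at an unadjusted p under 0.05, and the median was 0.07, with 0.161% of all genes called lower and 0.0357% higher.

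**Figure D2:**
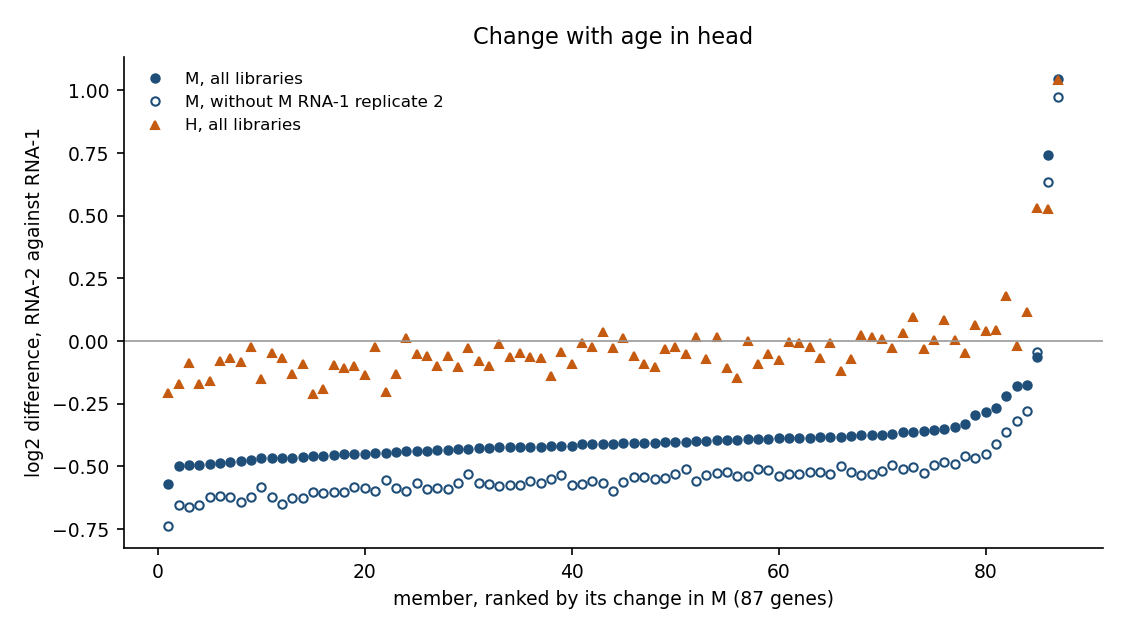
Log2 difference of RNA-2 against RNA-1 in head for each of the 87 ribosomal protein genes tested, ranked along the x axis by the change in M, with filled circles for M, open circles for M without M RNA-1 replicate 2 and triangles for H. The filled circles have a median of -0.41 and the open circles of -0.55, whereas the triangles have a median of -0.05. After division by library totals the M median was -0.14 with 0 genes called lower.

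Other transcripts for making proteins moved with these in part. In M heads, 39 of 72 mitochondrial ribosomal protein genes were lower and 0 higher (median -0.34), against 16.1% of all genes called lower and 15.8% higher. Their mean log2 deviation was 0.26, -0.04 and 0.38 in M RNA-1 replicates 1, 2 and 3, so that replicate 2 again lay below replicates 1 and 3. Counts without that library are not given here for these other lists. Of 37 translation initiation factors, 11 were lower and 5 higher (median -0.12), including eIF4B (-0.41, adjusted p = 0.00212) and eIF4EHP (0.40, adjusted p = 0.00331), a cap-binding repressor of translation. Of 35 genes for ribosome assembly, 3 were higher and 1 lower (median -0.07): Mybbp1A (0.42) and Nopp140 (0.35), both nucleolar proteins, and pix (-0.32), which separates spent ribosomes into subunits. Of 10 elongation and termination factors, 2 were lower and 1 higher (median -0.23), and of 13 subunits and factors of RNA polymerases I and III, 1 was lower and 2 were higher (median -0.03). Among 19 genes of the TOR pathway and growth control, 4 were lower and 8 higher, with Thor, the 4E-BP that holds back cap-dependent translation, at -0.60 (adjusted p = 0.00398). Rack1, a protein of the small subunit whose symbol does not meet the rule, fell by 0.37 (limma, adjusted p = 0.0392). For Rack1, M RNA-1 replicate 2 (97876.5) lay below the highest M RNA-2 library (98741.4). In H heads, 3 of 72 mitochondrial ribosomal protein genes were lower and 0 higher (median -0.10), with 2 of 37 initiation factors lower and 2 higher, 2 of 35 assembly genes higher and 0 lower, 1 of 10 elongation and termination factors lower and 0 higher, and 0 of 19 TOR and growth genes called. Of all genes, 8.56% were called lower in H heads and 11% higher.

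Markers of other cell types moved with time in head too. All 14 eye genes were lower in M heads, with summed levels of 2888530 to 3129840 normalized counts in RNA-1 libraries and 724064 to 988677 in RNA-2 libraries, and no eye gene was at 0. The 3 yolk protein genes, made by fat body in the head capsule, fell as well, from summed levels of 8344940 to 11007000 down to 1641330 to 1937950. The eye and yolk sums also dropped in H heads. The eye sum went from 2510020 to 3152700 down to 721855 to 1027380. The yolk sum went from 6009360 to 8782640 down to 2191120 to 2951430, which lay above its range in M RNA-2. The part of either in the result for M was not tested.

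In the fat body, ribosomal protein transcripts did not pass the test with time, with a single exception. In M females 1 of 86 genes was higher and 0 lower (2 at an unadjusted p under 0.05), with a median of 0.09, while 8.52% of all genes were called higher and 5.07% lower. In H females 0 genes were called (9 at an unadjusted p under 0.05), with a median of -0.20, against 6.55% of all genes higher and 8.76% lower. The change in H was below that in M for 83 of the 86 genes, but the difference of the changes called 0 (7 at an unadjusted p under 0.05, median -0.30), with 0.267% of all genes called higher and 1.75% lower. After quantile normalization this difference turned sign for 61 of the 86 genes, with a median of 0.05. No gene was called between H and M at RNA-1 (0 of 86, 4 at an unadjusted p under 0.05, median 0.22, with 0.488% and 0.498% of all genes called higher and lower) or at RNA-2 (0 called, 1 at an unadjusted p under 0.05, median -0.08, with 0.0184% and 0.581%). Without H RNA-2 replicate 2, 6 genes were lower in H with a median of -0.29, against 12.7% of all genes. After division by library totals, 13 genes were higher in M, near the 13.4% of all genes, and 13 in H, below the 30.2% of all genes, where the median of all genes moved to 0.37.

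The gene called in M fat body was RpS15Ab, a low duplicate of RpS15Aa. Its normalized counts were 832.6, 884.9 and 880.5 in M RNA-1 and 1057, 1023 and 1058 in M RNA-2. The groups did not overlap and the log2 difference was 0.27 (SE 0.07, adjusted p = 0.0266). When any 1 of the 6 M libraries was left out, the count in M was 0. RpS2 in H fat body, at 123110, 141547 and 145779 in RNA-1 and 99575.5, 118007 and 93920.4 in RNA-2, had a difference of -0.40 (SE 0.13) that did not pass (adjusted p = 0.0684) although its groups did not overlap.

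Germline transcripts were also found in the fat body libraries. For a list of 27 germline and oogenesis genes, with 0 at 0 in all libraries, the summed level was 49015.6 to 92394.6 in M RNA-1, 30948.8 to 34984.4 in M RNA-2, 40940.1 to 63449.5 in H RNA-1 and 37739.7 to 96269.7 in H RNA-2, and 6 of 27 were called lower in M and 0 in H. With the germline mean as a covariate the single call in M was lost and a single gene was called in H. Apart from such alternative fits, the part of these transcripts in the fat body values was not tested. The summed level of 10 gut genes was 544061 to 864633 in M RNA-1 and 418007 to 533975 in M RNA-2. In H it was 402270 to 1079930 in RNA-1 and 117321 to 418231 in RNA-2. No ovary library had a gut sum above 2249. The part of gut transcripts was not tested.

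Of the other lists for making proteins, ribosome assembly had the most calls in M fat body. Among all genes, 5.07% were called lower and 8.52% higher in M, and 8.76% lower and 6.55% higher in H. In M, 8 of 35 assembly genes were lower and 2 higher (median -0.28), among them Fib (-0.66), the methyltransferase fibrillarin of the nucleolus, and Sbds (0.64), which readies the large subunit for use. In H, 2 of the 35 were higher and 0 lower (median 0.04). Mitochondrial ribosomal proteins had 3 of 72 higher in M and 2 in H, with 0 lower in either. Initiation factors had 0 of 36 called in M and 1 lower in H, elongation and termination factors 0 of 10 in M and 2 lower in H, and RNA polymerase I and III genes 1 of 13 lower in M and 0 in H. Of 19 TOR and growth genes, 2 were lower in M, including Thor (-0.59), and 1 was lower and 1 higher in H. Marker lists of cell types had calls too: all 3 yolk protein genes were lower in both diets, 6 of 15 eggshell genes were lower in M and 2 in H, 6 of 10 fat body genes were called in M (3 in each direction) and 5 in H (3 lower), and 1 of 10 gut genes was lower in M and 5 in H.

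In ovaries the genes were lower with time in H more often than in the background, and a few of them by far more than the rest. In H females 55 of the 88 genes tested were lower at RNA-2 than at RNA-1 and 0 were higher, with a median log2 difference of -0.21, against 22.8% of all 9438 genes called lower and 25% called higher, though after quantile normalization 14 were lower and 20 higher, against 18.4% and 29.9% of all genes. The groups did not overlap, with RNA-1 higher, for 74 of the 88 genes, against 29.4% of all genes. The count of 55 became 35 without H RNA-1 replicate 2, 34 without H RNA-1 replicate 4 and 35 without H RNA-2 replicate 1, with 0 higher each time, against 17.7%, 20.2% and 18.8% of all genes lower. Of large subunit genes 32 of 52 were lower (median -0.21) and of small subunit genes 23 of 36 (median -0.20). In M females 9 of 88 genes were lower and 0 higher (median -0.08), a share of 10.2% beside 10.6% of all genes called lower and 9.76% called higher, so that the count in M was near the background. The groups did not overlap, with RNA-1 higher, for 16 genes in M, against 18.6% of all genes. After quantile normalization 7 were lower and 9 higher in M, against 8.2% and 11.8% of all genes. The change was more negative in H than in M for 86 of 88 genes, but the difference of the changes called 0 (limma, 16 at an unadjusted p under 0.05, median -0.13), as it did for all genes (0% in either direction). Without M RNA-1 replicate 2 it called 9 lower, against 3.45% of all genes. After quantile normalization the difference of the changes turned sign for 46 of the 88 genes, with a median of 0.0037. The genes share the same libraries, so their signs are not independent.

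The fall was steep in a few genes. RpS2, a small subunit protein whose mutation (string of pearls) halts oogenesis in Drosophila, lies on chromosome 2L at 9896265 to 9897552 on the minus strand. Its normalized counts were 126383, 161295 and 108967 in M RNA-1 and 51672.1, 58446.3 and 54625.5 in M RNA-2. In H they were 165472, 180849 and 183572 in RNA-1 and 60409.1, 66212.5 and 59211.5 in RNA-2. Each RNA-1 library was above each RNA-2 library, with log2 differences of -1.25 (SE 0.11, adjusted p = 0.000342) in M and -1.51 (SE 0.11, adjusted p = 1.98e-05) in H. Over the 22 alternatives the difference stayed between -1.38 and -1.10 in M and between -1.56 and -1.09 in H, and was called in all 22 in both diets.

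RpLP0, the base of the stalk (chromosome 3L, 22075867 to 22077487, plus strand), came next. Its counts were 98388.4, 118316 and 88597.9 in M RNA-1, 54698.3, 51101.1 and 51927.8 in M RNA-2, 131913, 155357 and 144198 in H RNA-1, and 51984.5, 58325.8 and 54457 in H RNA-2. The RNA-2 libraries of both diets fell in a narrow range while the RNA-1 libraries were higher, and in H highest. The log2 difference was -0.94 (SE 0.09) in M and -1.39 (SE 0.09) in H. Its partners in the stalk fell less, RpLP1 by 0.45 in M and 0.69 in H, and RpLP2 by 0.42 and 0.59.

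RpL10Ab, a large subunit protein of the other stalk, where spent tRNA leaves (chromosome 3L, 11822851 to 11824211, plus strand), had counts of 58631.2, 71833.8 and 55023.3 in M RNA-1, 41819.5, 44263.5 and 43316.7 in M RNA-2, 80377.5, 98599.1 and 88936 in H RNA-1, and 39299.8, 46211.7 and 44201.4 in H RNA-2. Groups did not overlap between times in either diet, with differences of -0.51 (SE 0.10) in M and -1.04 (SE 0.10) in H. RpLP0 and RpL10Ab were called lower in both diets in all 22 alternatives. RpS20, chosen after its values were seen, had differences of -0.66 in M and -0.87 in H, both called. RpL13A, also chosen after its values were seen, was called at -0.39 in M, and all 9 genes called in M were among the 55 called in H, as a share 9 of 9 and 9 of 55.

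Most of the other genes changed less. Among the 82 abundant genes the middle of the range in H, from the 10th to the 90th percentile, ran from -0.53 to -0.12. RpL32 had means of 68267.6 ± 3560.9 (SD, n = 3) in M RNA-1, 67857.1 ± 9090.9 in M RNA-2, 73369.6 ± 4285.6 in H RNA-1 and 65297.9 ± 1095.1 in H RNA-2, and was called in neither diet (-0.02 in M, adjusted p = 0.904, and -0.17 in H, adjusted p = 0.121). RpS6 (-0.24) and the ubiquitin fusions RpS27A (-0.35) and RpL40 (-0.18) were called lower in H, with -0.09, -0.19 and -0.02 in M that did not pass. RpS6 and RpL40 turned to 0.20 and 0.08 in H after quantile normalization. RpS2, RpLP0 and RpL10Ab were called lower under each scaling tried.

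**Figure D3:**
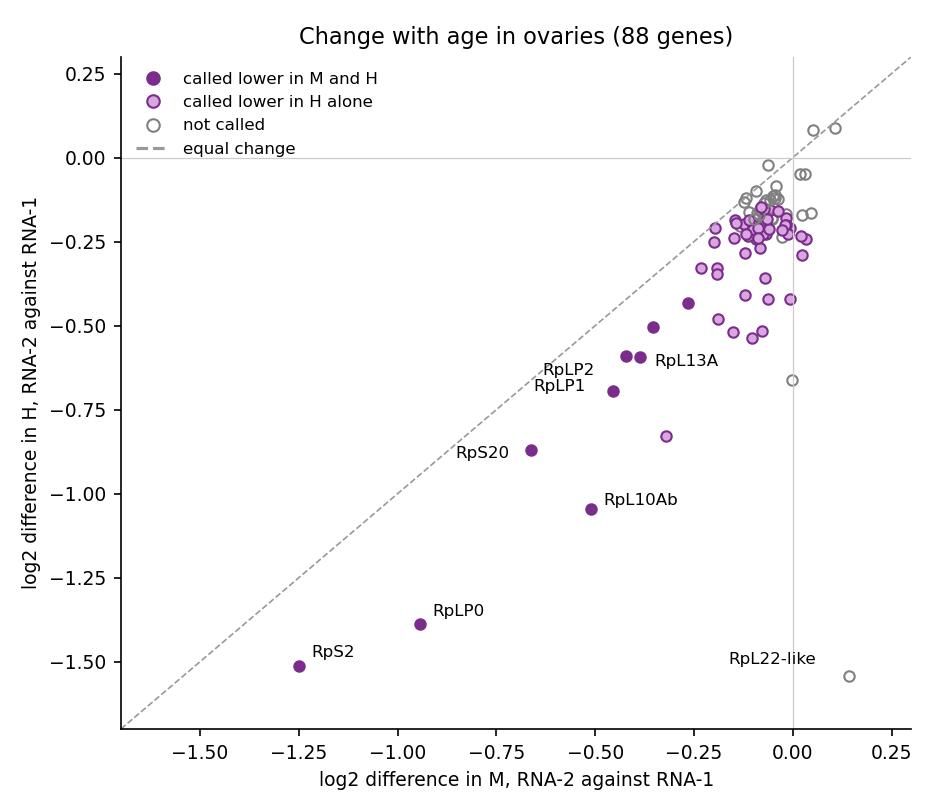
Log2 difference of RNA-2 against RNA-1 in ovaries for the 88 ribosomal protein genes tested, M on the x axis and H on the y axis, with dark fill for the 9 genes called lower in both diets, light fill for those called lower in H alone and no fill for the rest. The dashed line marks equal change, and 86 of 88 genes lie below it. RpS2 is at -1.25 and -1.51 and RpLP0 at -0.94 and -1.39, toward the lower left. After quantile normalization 14 genes were lower and 20 higher in H, and the H change minus M change turned sign for 46 of the 88 genes.

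RpS2, RpLP0 and RpL10Ab were also higher in H than in M ovaries at RNA-1, where 16 of 88 genes were higher in H than in M and 0 were lower (median 0.09), against 11.5% of all genes called higher and 13.5% lower, and 22 had groups that did not overlap with H higher, against 20.2% of all genes, although 4 were higher and 5 lower after quantile normalization, against 9.85% and 15.2% of all genes. RpS2 was 0.44 higher on the log2 scale (SE 0.11, adjusted p = 0.0203), RpL10Ab 0.53 (SE 0.10, adjusted p = 0.00868), RpLP0 0.51 (SE 0.09, adjusted p = 0.0085) and RpL3, a protein next to the peptidyl transferase center, 0.42 (SE 0.08, adjusted p = 0.00787). RpL3 stood at 155963, 182422 and 151533 in M RNA-1 and at 208749, 238251 and 208576 in H RNA-1, with no overlap. RpL10Ab, RpLP0 and RpL3 were called in all 22 alternatives, whereas the call of RpS2 between the diets was lost after quantile normalization. The count of 16 changed with single libraries. It was 3 without M RNA-1 replicate 1, 3 without M RNA-1 replicate 3 and 3 without H RNA-1 replicate 2. It was 8 without H RNA-1 replicate 4, 25 without M RNA-1 replicate 2 and 24 without M RNA-2 replicate 2. The share of all genes called in each of these fits is not given here. A drop or rise in the count therefore cannot be told from one over all genes. The differences between the diets at RNA-1 share the H RNA-1 and M RNA-1 libraries with the comparisons over time.

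In RNA-2 ovaries no difference between the diets was called: 0 of 88 genes were called at RNA-2, 0 had an unadjusted p under 0.05, and the difference among the 82 abundant genes lay between -0.10 and 0.19 (0.0212% of all genes called higher and 0.0106% lower). RpS2, RpLP0 and RpL10Ab had RNA-2 means of 54914.6 ± 3396.4, 52575.7 ± 1884.1 and 43133.3 ± 1232.3 (SD, n = 3) in M and 61944.4 ± 3744.5, 54922.4 ± 3196.2 and 43237.7 ± 3555.3 in H. Their RNA-1 means were 132215, 101767 and 61829.4 in M and 176631, 143823 and 89304.2 in H.

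**Figure D4:**
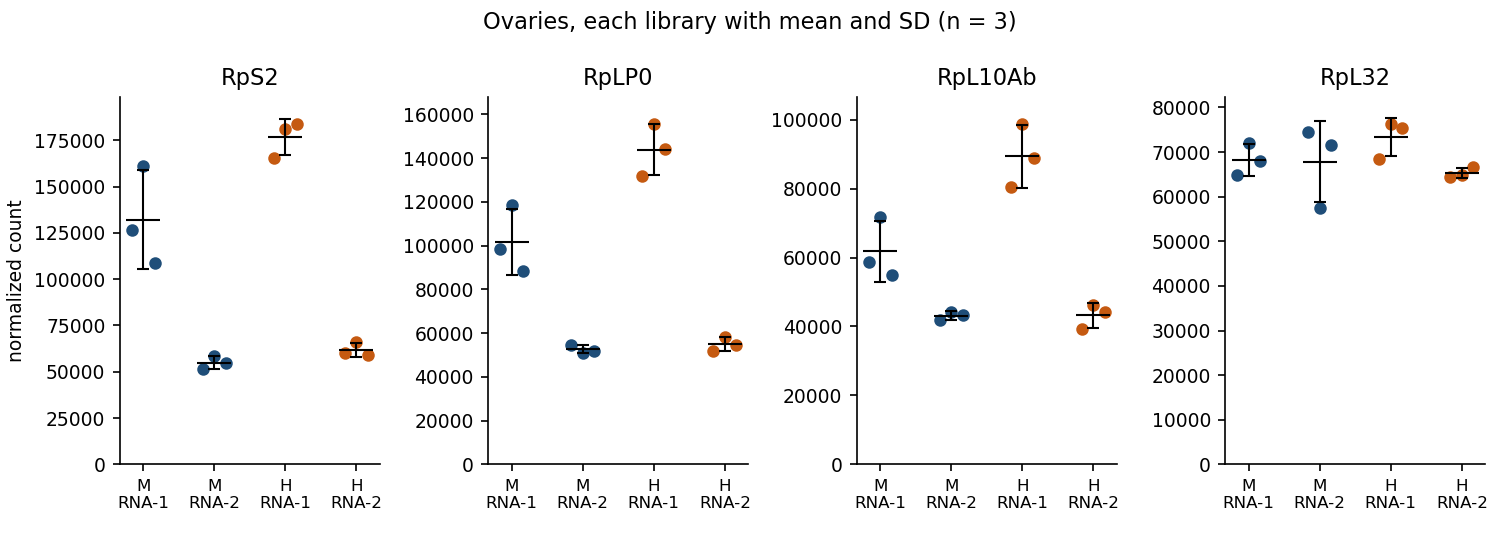
Normalized counts (y axis, from 0) of RpS2, RpLP0, RpL10Ab and RpL32 in each ovary library by diet and time (blue M, orange H), with horizontal bars for the mean and error bars for the SD of 3 libraries. The first 3 genes are highest in H RNA-1 and lowest in the RNA-2 groups of both diets, and RpL32 lies between 57483.2 and 76193.9 in all 12 libraries.

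Another small subunit gene outside the symbol rule, sta, was also called lower in both diets. It encodes the protein RpSA and stood at 121242, 152472 and 113002 in M RNA-1, 77332.2, 69477.2 and 74947.2 in M RNA-2, 157127, 177594 and 180707 in H RNA-1, and 81180.4, 77781.3 and 77748.7 in H RNA-2. Its groups did not overlap between times in either diet, and it fell by 0.79 in M (adjusted p = 0.000893) and by 1.12 in H (adjusted p = 2.03e-05). Rack1 fell by 0.34 in H (adjusted p = 0.00177) and had -0.13 in M.

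Elongation factors, the cofactors of the stalk, fell in H ovaries alongside: 6 of 10 elongation and termination factors were lower and 0 higher (median -0.19), among them eEF2 (-0.40), eEF1alpha1 (-0.30) and eEF1delta (-0.38), whereas in M 1 was lower (eEF1delta, -0.21). Of 37 initiation factors 16 were lower and 2 higher in H (median -0.12) and 3 lower and 2 higher in M. Of 35 ribosome assembly genes 10 were lower and 5 higher in H (median -0.01), with Nmd3, which exports the large subunit from the nucleus, at -0.59. Mitochondrial ribosomal proteins had 14 of 72 lower and 2 higher in H (median -0.07) and 11 lower and 0 higher in M (median -0.10). Of all genes, 22.8% were called lower and 25% higher in H, and 10.6% lower and 9.76% higher in M. The mitochondrial count in H was thus not above the background. Of 13 RNA polymerase I and III genes, 2 were lower and 3 higher in H and 2 lower and 2 higher in M. Among the TOR and growth genes, raptor, a core subunit of the TOR complex, had a log2 difference of -0.57 in H, and 3 of 19 were lower and 4 higher. Between the diets at RNA-1, 4 of 10 elongation and termination factors were higher in H and 0 lower, including eEF2 (0.26), with 9 of 35 assembly genes higher and 2 lower, 4 of 37 initiation factors higher and 1 lower, and 1 of 72 mitochondrial ribosomal protein genes higher and 9 lower. Of all genes, 11.5% were called higher there and 13.5% lower. The 4 initiation factors higher and the 9 mitochondrial genes lower were near these shares.

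Eggshell transcripts changed with the same groups. The summed level of 15 chorion and vitelline membrane genes, made by follicle cells late in oogenesis, was 616068 to 1179920 normalized counts in M RNA-1, 22304.4 to 135454 in M RNA-2, 1559660 to 2175350 in H RNA-1 and 84324.1 to 185579 in H RNA-2. Of the 15 genes, 10 were lower in M and 11 in H, and none was at 0 in all libraries. Of 13 muscle genes tested, 11 were higher in H than in M ovaries at RNA-1, with summed levels of 64301.5 to 69323.8 against 41688.5 to 48183.4. The germline list (27 genes) summed to 829339 to 911233, 816323 to 831196, 932863 to 1012600 and 807538 to 844327 in the same order. The order of the groups for eggshell transcripts is that of RpS2, RpLP0 and RpL10Ab at RNA-1, and the part of eggshell or muscle transcripts in these results was not tested.

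Genes paired by symbol (a final a or b, or -like) were compared as ratios within a library, which do not depend on its scaling. A shared symbol does not show that both genes of a pair encode a protein of the ribosome. The symbols gave 12 pairs, of which 9 could be tested in head, 8 in the fat body and 10 in ovaries, by an exact permutation test (two-sided, time labels permuted within diet, 400 permutations, smallest possible p = 0.005) with adjustment over the 27 tests. Near-identical copies may share reads in the authors' counting, so these ratios are uncertain. In the annotation, RpS14a (7933742 to 7934677) and RpS14b (7934898 to 7935792) lie side by side on chromosome X with coding sequences of the same length, 453 bases.

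In ovaries 4 ratios rose with time. RpLP0-like against RpLP0 rose by 0.99 on the log2 scale (exact permutation adjusted p = 0.0338), with ratios from -4.66 to -4.30 in M RNA-1, -3.65 to -3.60 in M RNA-2, -4.89 to -4.76 in H RNA-1 and -3.71 to -3.64 in H RNA-2, so that no RNA-1 library reached an RNA-2 library. RpLP0-like itself had -0.12 in M and was called at -0.23 in H. In human cells its relative MRTO4 is an assembly factor and not part of the finished ribosome. RpL7-like against RpL7 rose by 0.20, RpS14b against RpS14a by 0.13 (both exact permutation adjusted p = 0.0338) and RpL24-like against RpL24 by 0.24 (exact permutation adjusted p = 0.045). The ratio of RpS14b to RpS14a also rose in fat body, by 0.12 (exact permutation adjusted p = 0.045), a call lost without M RNA-1 replicate 1 or 3, M RNA-2 replicate 2 or 3, or any 1 H RNA-2 library. In head, RpS10b fell against RpS10a by 1.29 (exact permutation adjusted p = 0.0338). RpS10a was barely present there, at 15.1, 11.2 and 11.5 counts in M RNA-1 and 24.5, 19.4 and 40.3 in M RNA-2, and at 7.4, 7.8 and 10.7 in H RNA-1 and 13.9, 14.4 and 32.1 in H RNA-2, so that the ratio rests on few reads.

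Some duplicates were low in ovaries, and RpS5b was not. RpS5b had a mean of 48917 over the 12 ovary libraries, beside 40576 for RpS5a. Its mean was 189 in head and 1112 in fat body, where single libraries ran from 114.7 to 2877. RpS19b had means of 40.0 ± 15.6 (SD, n = 3) in M RNA-1, 38.4 ± 4.1 in M RNA-2, 62.9 ± 11.4 in H RNA-1 and 40.2 ± 11.6 in H RNA-2, and RpL22-like, known mainly from testis, had 11.4 ± 14.9, 7.5 ± 2.5, 12.3 ± 1.9 and 3.9 ± 2.1. RpL22-like had the lowest difference in H (-1.54), which was not called. RpL22 itself, with counts of 71629.3, 65817 and 73885.1 in H RNA-1 and 51823.8, 42622.9 and 51723.7 in H RNA-2, fell by 0.54 (SE 0.11, adjusted p = 0.00201) in H and had -0.10 in M, where the groups overlapped.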

How the data were processed

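RNA of 36 pools of females was sequenced with a stranded mRNA kit. The deposited values are signal, estimated counts made by the authors with kallisto 0.46.1 on BDGP6 transcripts and divided by DESeq2 1.28.1 size factors (R 4.0.1), each tissue in its own table. The authors also deposited log2 fold changes with standard errors, a Wald score and p-values with their adjusted form for the comparison of times within each diet, none of which was used here. Since whole reads could not be recovered, log2(value + 1) was tested with limma 3.58.1 (trend, robust; R 4.3.3, statmod 1.5.0), with 4 groups per tissue and genes at 10 or more in at least 3 libraries, checked on simulated data. Ratios of duplicates were tested by exact permutation (Python 3.11.15, numpy 2.4.6, pandas 2.3.3). Library totals are known only after scaling, so counting error is unknown. P-values measure the spread between these pools.

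Genes, lists and tests were chosen with earlier results of these data known. Named were duplicates, RpLP0, RpLP1, RpLP2, RpL40, RpS27A, RpS6, RpL32, up to 3 called genes with the smallest p per direction, the extreme differences, the 3 highest and lowest levels, and up to 3 genes per other list; some genes that the rule takes are not reported here. Alternatives were other scalings, filters and pseudocounts, fits on 6 libraries, a replicate block, a length trend and a germline covariate, and fits without each library.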

Additional observations from a re-analysis of the deposited data

Results flagged for a closer look

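In the fat body, 2 duplicates changed in opposite directions in the diets with no overlap between times, and their difference of changes (H change minus M change) was tested but not called. The share of all genes with such a pattern is not given here, so this count does not stand against a background. RpS15Ab had a difference of -0.41 on the log2 scale, with 832.6, 884.9 and 880.5 normalized counts in M RNA-1, 1057, 1023 and 1058 in M RNA-2, 974.5, 1010 and 1082 in H RNA-1 and 919.7, 898.5 and 964.7 in H RNA-2. RpS19b had a difference of -1.83, from counts between 2.78 and 21.4, so that it rests on few reads.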

How the results depend on the processing

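Counts of ribosomal protein genes called changed with the scaling and with single libraries. A count below takes both directions together unless a direction is given. In head M the 70 calls became 12 after quantile normalization, 1 (higher) with library totals, 19 with the length trend removed, 0 in the 6 libraries alone, 35 with a replicate block and 0 with M RNA-1 replicates 1 and 3 left out. In head H the 0 became 1, 2 and 1 with quantile normalization, library totals and no filter. In fat body M the 1 call became 13 with library totals, 1 (lower) in the 6 libraries alone, and 0 with the length trend removed, the replicate block, the germline covariate or 3 germline-rich libraries left out. In fat body H the 0 became 13 with library totals and 1 with quantile normalization, length trend or germline covariate, and for the difference of changes 1 with quantile normalization or a filter at 50. In ovaries the 9 in M became 16 with quantile normalization, the 55 in H became 34, 22 and 23 with quantile normalization, library totals and the replicate block, and the 16 between diets at RNA-1 became 9, 30, 7 and 6 with quantile normalization, length trend, 6 libraries alone and replicate block. The cause was not tested.

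Leaving out 1 library at a time gave 1 to 84 in head M, 0 to 1 in head H, 0 to 78 for the head difference of changes and 0 to 84 for the diets at RNA-1, and 0 at RNA-2. In fat body the ranges were 0 to 2 in M, 0 to 6 in H, 0 to 3 for the difference of changes, 0 between diets at RNA-1 and 0 to 1 between diets at RNA-2. In ovaries they were 8 to 11 in M, 34 to 70 in H, 0 to 9 for the difference of changes, 3 to 25 between diets at RNA-1 and 0 between diets at RNA-2. Pairs of duplicates called ranged from 1 to 2 in head, 0 to 2 in fat body and 3 to 5 in ovaries. An arm left with few libraries borrowed the spread of the other groups. Shares of all genes are not given beside these ranges.

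With library totals the difference in fat body H turned sign for 79 of 86 genes, as the median of all genes moved from 0.05 to 0.37. Among the genes taken by the naming rule and called in either fit these were RpL24-like (0.31), RpL7-like (0.31), RpS10b (0.26), RpS14a (0.25) and RpS6 (0.19). With quantile normalization 51 of 88 genes turned sign in ovary M and 59 in ovary H, 9 of the latter called in both fits. Among the genes chosen in the same way these were, in ovary M, RpL7 (0.16) and, in ovary H, RpL40 (0.078), RpL7 (0.24), RpS14a (0.042), RpS28b (0.14) and RpS6 (0.20). Replicate numbers were not treated as pairs. Correlations of deviations between same-numbered libraries ran from -0.26 to 0.32, and no comparison with 3 pairs had all above 0.1. With 2 pairs, all were above 0.1 for H against M at RNA-1 in ovaries (0.26 and 0.28) and for fat body H over time (0.12 and 0.24). The rest with 2 pairs did not have all above 0.1. So few pairs cannot decide whether the numbers pair libraries.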
